A study of Mus musculus with 80 samples.

Results

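The reporters described here are integrations at the distal ends of the mouse autosomes: those on chromosomes 1 to 19 that lie within 5 Mb below the highest reporter position on the same chromosome. There are 448 of them among the 10903 reporters of the series. Of these, 444 had at least 10 genomic DNA counts in all 8 DNA libraries of their pool, and they were compared with the 10132 other autosomal reporters past the same minimum. Distances are counted from the last reporter of each chromosome, not from the telomere, so the true distance to the end is longer by an amount not analysed here. The choice of members used positions only, not expression.

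The cells were EBRTcH3 mouse embryonic stem cells, in which the ROSA26 locus drives tTA, the transactivator that tetracyclines control. All groups shared this genotype and carried piggyBac integrations of a barcoded tet-Off reporter. Sorted cells with low eGFP were grown for 5 days, small pools for 7 days, and each of 4 pools (A to D) was then divided into 2 cultures kept apart for 7 days. Each culture was spread over no doxycycline (dox 0) and 3 doses of it for 72 h, at 100 ng/ml, at 0.1 ng/ml or at 0.01 ng/ml, before RNA and DNA were taken. The titles and the plasmid name a tet-Off construct, whereas the growth and treatment texts speak of an mPGK promoter, and the titles were followed. The 2 cultures of a pool are technical replicates per the labels, so a p-value from them measures the spread between such cultures only. No label gives a marker for the cell type, and reporter barcodes cannot check it.

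In TRIP, an assay of reporters integrated in parallel, many copies of 1 reporter are inserted across the genome, each tagged with its own barcode, so that RNA barcodes over DNA barcodes give the activity at each site. In a tet-Off system tTA binds the promoter and activates it, and dox releases tTA. Mouse autosomes are telocentric: the centromere lies at the start of the numbered sequence, so the highest positions lie towards the telomere of the long arm. Telomeric repeats and the sequence beside them are known from other systems for chromatin that can lower the activity of nearby promoters.

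Each reporter was read only through its barcode, and the barcodes of the reporters on which the results turn are printed in lower case, as the deposited table holds them. The first 3 are the outermost reporters of chromosome 4, which kept their RNA at the top dose. The next pair gives the last reporter of chromosome 15 and the strongest reporter of all distal ends at that dose. The others are the strongest and the weakest without dox, the largest increase that both replicates showed, a large decrease, and the last reporter of chromosome 17. Of the 444 barcodes, 435 had 16 bases. Those of chromosome 4 at 155563202 and chromosome 7 at 151738710 are among the 31 that another pool lists too.
Chromosome 4, 155567838, pool A: gcaataatagccggta
Chromosome 4, 155564789, pool C: ctccacgacaacaata
Chromosome 4, 155563202, pool D: tgtatgaccaggtgat
Chromosome 15, 103408335, pool A: taatatacaatggcct
Chromosome 15, 102235686, pool B: cattcccaatacccgc
Chromosome 11, 119803528, pool B: tctatacgttgcgtgg
Chromosome 7, 151738710, pool C: ccaaagatttaagatg
Chromosome 11, 120767872, pool A: actcgcatatatctca
Chromosome 14, 122112981, pool B: gggacgcgaccgaatg
Chromosome 17, 94737828, pool B: aagagttttaagaaag

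The distal ends held 88 reporters in pool A, 86 in B, 134 in C and 136 in D. Total counts were 729552 to 1840870 per RNA library and 928128 to 1571280 per DNA library. Integrations there were on average about as dense as elsewhere, with 4.67 reporters per Mb against 4.40 in the rest of the autosomes. The ends were uneven, from 7 members on chromosome 18 to 49 on chromosome 15, so some weigh more in the set means. Of the members 47.1% were listed on the plus strand, against 49.6% of the others. Their DNA abundance differed from that of other reporters by 0.21, 0.05, −0.04 and −0.08 in pools A to D on the log2 scale, a mean of 0.03 ± 0.13 (SD, n = 4 pools; exact sign-flip permutation test, two-sided p = 0.75). In the DNA libraries alone, 0 of the 444 changed between dox 100 and dox 0 in either direction, as did 0% of all reporters tested (edgeR quasi-likelihood test, adjusted). At an unadjusted p under 0.05, 8 were higher and 10 lower. Reads of PCR products carry no molecular identifier here, so floors and limits cover counting error only.

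Without dox, distal reporters as a set lay slightly above the other autosomal reporters in each pool, and every one of them gave RNA. The level of a reporter is the log2 of its RNA share over its DNA share of the library (1 count added to each). It is the mean of 2 replicates, with the pool mean set to 0 at each dose separately. Levels at different doses therefore have different zeros. At dox 0 the mean level of distal reporters exceeded that of the others by 0.56 in pool A, 0.08 in B, 0.38 in C and 0.31 in D. The mean difference was 0.33 ± 0.20 (SD, n = 4 pools), above 0 in 4 of 4 pools (exact sign-flip permutation test over pools, two-sided p = 0.125, the smallest that 4 pools allow). Against reporters 5 to 25 Mb from the end alone it was 0.015 (exact permutation p = 0.875), and without chromosome 15 it was 0.16 (exact permutation p = 0.5). Of the 444, 0 lacked RNA in both replicates at dox 0, which allows a share of up to 0.676%, and the other reporters lacked it in 0.274% ± 0.114 (SD, n = 4 pools).

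The levels of single members spread from −6.02 to 4.88 at dox 0, with a median of 0.41 and quartiles of −0.81 and 1.68. The noise-corrected SD between members (the root of the covariance between both replicates) was 1.81 ± 0.081, against 1.99 ± 0.034 among other reporters (SD, n = 4 pools). The replicates correlated about equally well in both sets, with a mean Pearson r across reporters of 0.904 and 0.900. The 3 members just inside the 5 Mb limit stood at 1.02 to 2.65 and the 3 reporters just outside at −0.85 to 0.57. These few did not overlap, but the classes on either side did. At dox 0 the quartiles were −0.63 and 1.97 at 4 to 5 Mb and −0.80 and 1.47 at 5 to 10 Mb.

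The strongest member at dox 0 was the pool B reporter on chromosome 11 at 119803528. Its 2 replicates gave 9286 and 9602 RNA counts beside 397 and 693 DNA counts. Its level was 4.88 ± 0.52 (SD, n = 2), and at dox 100 it still gave 522 and 312 RNA counts. The next 4 were the pool D and pool A reporters on chromosome 10 at 126760821 (4.44) and 126670304 (4.33), and the pool D reporters on chromosome 15 at 102523419 (4.31) and chromosome 11 at 119407737 (4.28). Their fates at dox 100 differed. The first of the chromosome 10 pair went from 1290 and 1352 RNA counts to 0 and 0. The other went from 1969 and 2806 to 763 and 1418, a fitted change of 0.11 ± 0.74 on the log2 scale (SE, edgeR adjusted p = 0.91) whose sign turned under other scalings. The reporter at 119407737 also fell to 0 and 0, from 402 and 554.

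The weakest member at dox 0 was the pool C reporter on chromosome 7 at 151738710, 582 kb from the last one. It gave 0 and 4 RNA counts beside 327 and 110 DNA counts. The next weakest were those on chromosome 3 at 159594015 (pool D, 1 and 4 RNA counts), chromosome 15 at 103290511 (pool B, 10 and 16), chromosome 18 at 89874425 (pool B, 5 and 9) and chromosome 13 at 117666587 (pool A, 6 and 12). Of these 5, 4 lay within 1 Mb of the last reporter, and those of chromosomes 3 and 18 were themselves the last. At dox 100 the reporter on chromosome 7 had 61 and 0 RNA counts and passed as higher (5.75 ± 2.29 on the log2 scale, SE, edgeR adjusted p = 0.0486). Only 1 of its 2 replicates moved up. The call was lost with a replicate block (adjusted p = 0.145) and with library totals (adjusted p = 0.0888), and without the library that held the 61 counts the change turned to −2.10.

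Split by distance, the last 1 Mb stood apart from the next 4 Mb without dox. This width was noticed in the data, so its values are a description without a test. The 89 reporters within 1 Mb of the last one had mean levels of −0.29, −0.94, −0.36 and −0.53 in pools A to D, below the pool mean in 4 of 4. The 66 reporters 1 to 2 Mb from the end stood at 0.91, 0.81, 0.90 and 0.78, above it in 4 of 4. From there the means over pools were 0.26 at 2 to 3 Mb, 0.52 at 3 to 4 Mb and 0.62 at 4 to 5 Mb, beside 0.25 at 5 to 10 Mb and 0.53 at 20 to 25 Mb. The last 1 Mb was thus the only one of these 10 distance classes, beside that beyond 25 Mb (−0.077), whose mean lay below 0 at dox 0. The classes beyond 5 Mb are wider, with 397 to 8187 reporters each. Classes of 1 Mb were not examined there, so whether others as low exist is not known.

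**Figure D1:**
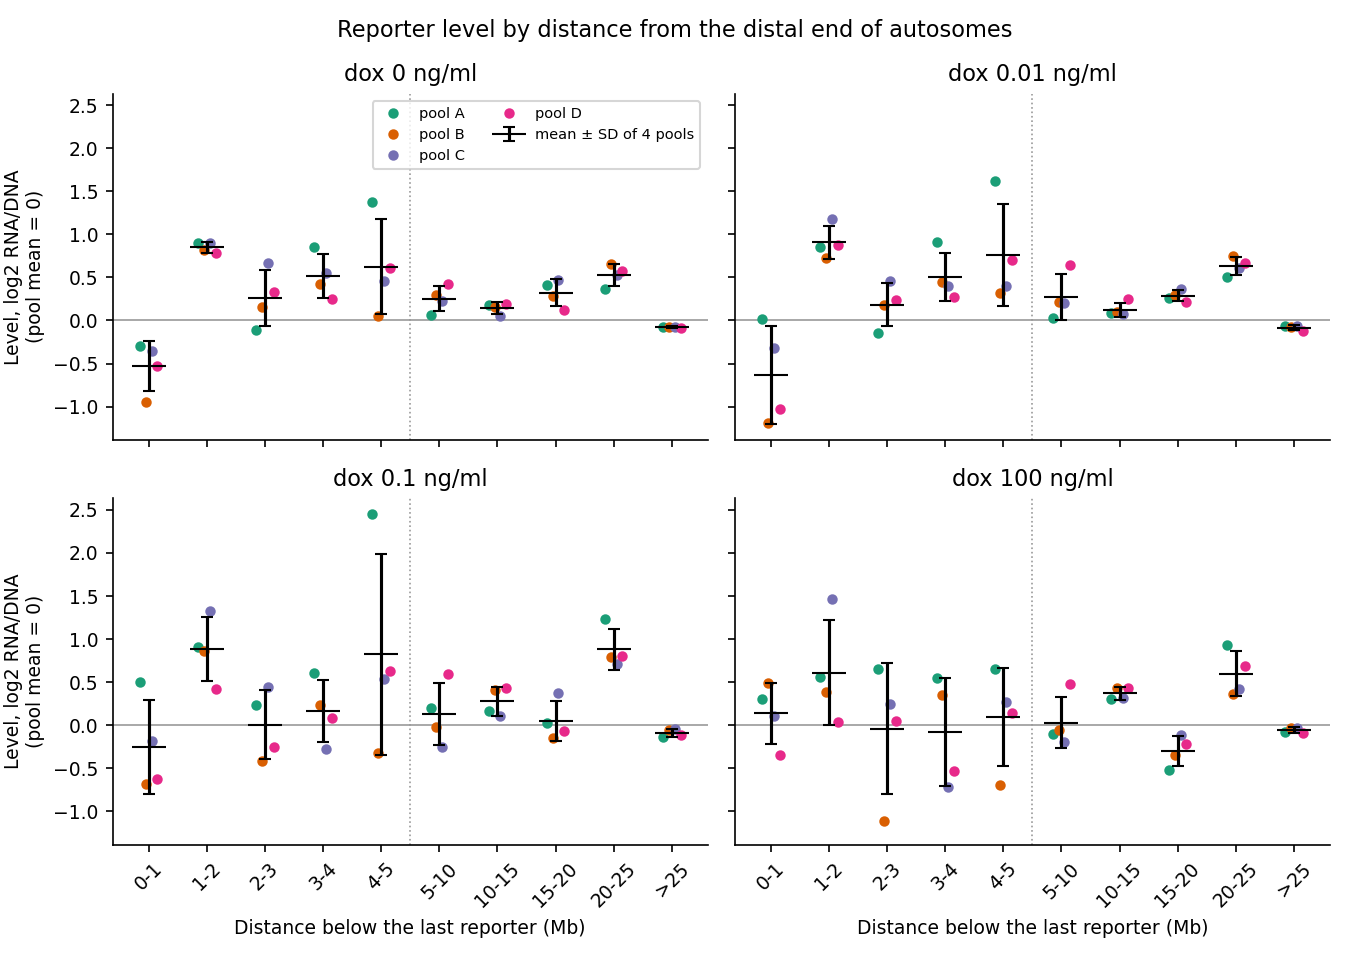
Mean level of reporters (log2 RNA/DNA, pool mean at 0) by distance below the last reporter of the chromosome in Mb, at each dose. Coloured points are the 4 pools, black bars their mean ± SD, and the dotted line marks 5 Mb. At dox 0 the last 1 Mb lay at −0.53 ± 0.29 and the next 1 Mb at 0.85 ± 0.06, and at dox 100 the former was at 0.14 ± 0.36.

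Relative to the members 1 to 5 Mb from the end, the last 1 Mb was lower by similar amounts in the pools at dox 0: the differences were −1.08, −1.28, −0.97 and −0.98 in A to D, a mean of −1.08 ± 0.14 (SD, n = 4). With a window of 0.5 Mb the last reporters stood at −0.97 against all other autosomal reporters, and with 1 Mb at −0.55 ± 0.30. With 2 Mb the difference was 0.06, since the high reporters from 1 to 2 Mb then enter. On 17 of the 19 chromosomes the last 1 Mb lay below the 1 to 5 Mb of its own end at dox 0, the exceptions being chromosomes 2 and 4. Their DNA abundance differed from that of all others by 0.33, −0.09, −0.13 and −0.13 in pools A to D on the log2 scale.

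The mean of this difference was smaller at the higher doses. Against the 1 to 5 Mb members, the last 1 Mb stood at −1.20 ± 0.40 at dox 0.01, at −0.71 ± 0.07 at dox 0.1 and at 0.03 ± 0.54 at dox 100 (SD, n = 4 pools). At dox 100 the pools gave −0.31, 0.84, −0.18 and −0.24 in A to D, so the last 1 Mb was still lower in 3 of 4, and it was lower on 11 chromosomes and higher on 8. Without chromosomes 4 and 15, reporters of all pools together averaged −0.87 in the last 1 Mb and 0.39 at 1 to 5 Mb at dox 0. These means were −0.86 and 0.24 at dox 0.1 and −0.93 and −0.08 at dox 100, so the last 1 Mb remained lower there. Both chromosomes were picked after their values were seen. Against all other autosomal reporters the value at dox 100 was 0.14 ± 0.36, and it rested on few ends: it was −0.30 without chromosome 4 and −0.43 without chromosome 15. At that dose 42.7% of these 89 reporters had no RNA count in either replicate, and the pseudocount and the DNA counts then set their level, so lost detection and level are mixed.

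For the whole 5 Mb, the difference from other autosomal reporters was nearly the same at the first 3 doses and smaller at dox 100. It was 0.34 ± 0.25 at dox 0.01 (above 0 in 4 of 4 pools, exact permutation p = 0.125) and 0.32 ± 0.50 at dox 0.1 (1.03, −0.12, 0.33 and 0.05 in A to D, p = 0.375). At dox 100 it was 0.12 ± 0.35 (0.56, −0.20, 0.24 and −0.14, exact permutation p = 0.625). The slope over the 4 doses was −0.066 per dose step (exact permutation of doses within pools, two-sided p = 0.0771), and the change from dox 0 to dox 100 was −0.21 ± 0.19 (SD, n = 4 pools), below 0 in 4 of 4 pools, with −0.00085 in pool A the smallest. The slope passed at p = 0.000145 without pool A, with −0.099 per step, at p = 0.0232 without chromosome 15, with −0.126, and also without chromosome 2, 10 or 13 (exact permutation p = 0.0287, 0.0224 and 0.0267). No other left-out pool, chromosome or replicate let it pass. It was −0.035 without chromosome 1, −0.037 without pool D and −0.053 without pool B (exact permutation p = 0.421, 0.393 and 0.267). In units of the SD between reporters it passed, at −0.045 per step (exact permutation p = 7.23e-05). That SD itself rose with dose, among other reporters from 2.04 at dox 0 to 3.71 at dox 100. A constant positive difference would shrink in such units, so this p does not show that the log2 difference changed. With a window of 2.5 Mb the log2 slope was 0.0030 (exact permutation p = 0.924). The value at dox 0.1 was 0.088 without pool A and 0.040 without chromosome 15, and that at dox 100 was −0.22 without chromosome 15.

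**Figure D2:**
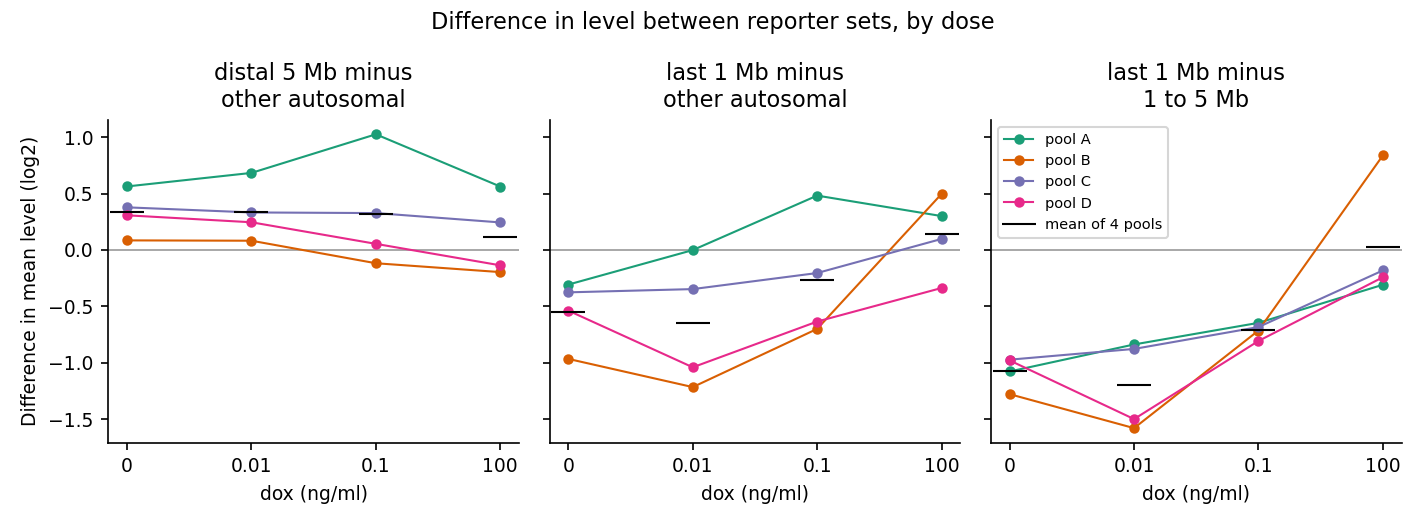
Difference in mean level (log2) between reporter sets at each dox dose, 1 line per pool, with the mean of the 4 pools as a black bar. The last 1 Mb lay 0.97 to 1.28 below the members 1 to 5 Mb from the end at dox 0 in every pool, and at dox 100 between −0.31 and 0.84.

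The share of distal reporters that lost their RNA did not differ from that of other reporters beyond the spread of the pools. At dox 0.1, 9.09%, 16.3%, 10.4% and 19.1% of the members in pools A to D had no RNA count in either replicate, against 19.7%, 15.5%, 18.6% and 19.5% of the others. The mean difference was −4.61 ± 5.65 percentage points (exact permutation p = 0.375). At dox 100 the shares were 44.3%, 48.8%, 44.0% and 51.5% among members and 47.2%, 45.2%, 50.0% and 49.7% among others, a mean difference of −0.88 ± 4.37 points (exact permutation p = 0.75).

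Tested singly and counted over all pools, the members passed at shares near those of all reporters, with more higher calls in pool A at dox 100. "Higher" and "lower" are relative to the scaling of the libraries, so a decrease common to every reporter would not be seen. At dox 0.01, 0 of 444 passed in either direction (edgeR's quasi-likelihood fit, with Benjamini-Hochberg adjustment per pool), against 0.0185% of all 10785 reporters higher and 0% lower. At an unadjusted p under 0.05 there were 10 higher and 5 lower members, against 298 and 234 of all 10785. The DESeq2 Wald test called 0.229% of members higher and 1.14% lower, without a share of all reporters to set beside them. At dox 0.1, 37 members were higher (8.33%, against 9.07% of all tested) and 84 lower (18.9%, against 19.8%). At dox 100, 63 were higher (14.2%, against 10.9%) and 227 lower (51.1%, against 50.4%). Higher members were 18 of 88 in pool A (20.5%), 10 of 86 in B (11.6%), 16 of 134 in C (11.9%) and 19 of 136 in D (14.0%). Over all reporters of the same pools the shares were 10.8%, 12.1%, 10.04% and 10.97%, so pool A lay farthest above its background and B did not lie above it. The median change at dox 100 was −4.24 on the log2 scale over the members and −4.12 over all reporters tested.

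The split of these calls moved with the scaling. Higher calls were 21.7% of the members' calls at dox 100 with TMM, 11.3% (33 higher, 258 lower) with DESeq2 size factors and 9.09% (27 and 270) with library totals. At dox 0.1 the same shares were 30.6%, 10.5% and 7.55%. The median over all reporters at dox 100 moved from −4.12 to −4.83 and −5.15. Of the 63 higher members, 62 had RNA in both dox 100 libraries, and of the 227 lower ones, 198 had none in either. By library totals alone, both replicates moved up in 47 of the 63 and down in 3, and both moved down in 227 of the 227. The higher ones had a median level of 0.85 at dox 0 and the lower ones 0.23, values that share the dox 0 libraries with the test. At dox 0.01, whose libraries are not in the contrast, these medians were 1.40 and 0.19.

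By distance, the share called higher at dox 100 was 20.2% in the last 1 Mb (18 of 89) and 11.6% to 13.4% in the 4 next classes of 1 Mb, and the share called lower was 40.4% (36 of 89) against 52.3% to 56.1%. Without chromosomes 4 and 15 the last 1 Mb held 10 higher (14.7%) and 32 lower (47.1%) of 68. At dox 0.1 it held 8 higher (8.99%) and 15 lower (16.9%) of 89, near the 9.07% and 19.8% of all tested. The last 1 Mb was weaker at dox 0, and a reporter with few RNA counts can fall to 0 without a call. That at the end of chromosome 5 went from 24 and 17 counts to 0 and 0 at dox 100 (edgeR adjusted p = 0.106). Fewer lower calls thus do not show less loss. At dox 100, 42.7% of the last 1 Mb and 48.5% at 1 to 5 Mb had no RNA count in either replicate.

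**Figure D3:**
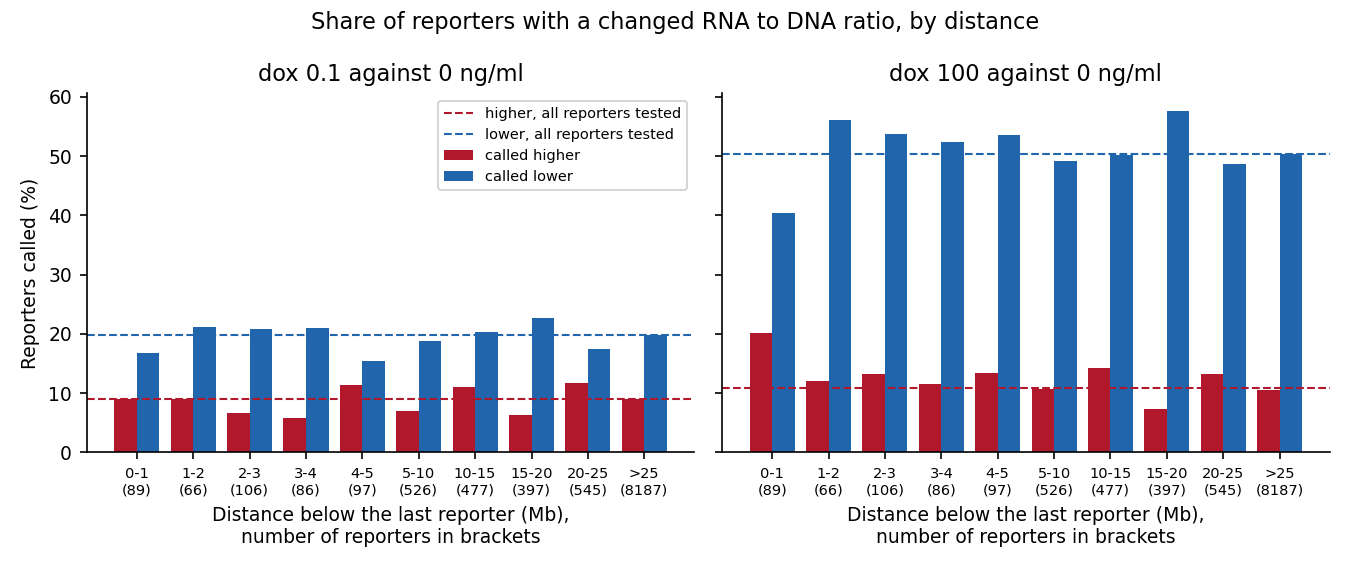
Percent of reporters called higher (red) and lower (blue) than at dox 0 by distance below the last reporter, at dox 0.1 and 100 ng/ml, with the share among all 10785 reporters as dashed lines. At dox 100 the last 1 Mb had 20.2% higher and 40.4% lower calls, against 10.9% and 50.4% of all.

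Among members whose 2 replicates both rose, the largest increase at dox 100 was that of the pool A reporter on chromosome 11 at 120767872, 766 kb from the last one. It had 57 and 121 RNA counts at dox 0, 1181 and 1132 at dox 0.1 and 957 and 718 at dox 100, beside 111 and 311 and then 116 and 154 DNA counts. The fitted change was 5.52 ± 0.85 on the log2 scale (SE, edgeR adjusted p = 0.000224), and it was also the largest at dox 0.1, at 4.77 ± 0.83 (adjusted p = 0.00133). Chromosome 9 gave 3 of the 5 largest increases. The pool D reporter at 119327841 went from 604 and 579 RNA counts to 5413 and 5161 (5.38 ± 0.54), the pool C reporter at 120857357 from 48 and 60 to 410 and 431 (4.71 ± 0.80), and the pool D reporter at 121629576 from 16 and 19 to 78 and 175 (5.39 ± 1.23, with 0 and 0 at dox 0.1). The other was the pool A reporter on chromosome 15 at 100058949 (284 and 287 to 840 and 875, 5.12 ± 1.19, adjusted p = 0.00332).

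The strongest member at dox 100 was the pool B reporter on chromosome 15 at 102235686. It had 1753 and 1913 RNA counts at dox 0, 3317 and 2976 at dox 0.1 and 5831 and 6082 at dox 100, with 283 and 379 DNA counts at dox 0 and 277 and 219 at dox 100. Its fitted increase was 4.19 ± 0.88 (log2, SE, edgeR adjusted p = 0.0017). Of the 5 members with the highest level at dox 100, 3 lay on chromosome 15, at 102235686 (9.97), 100058949 (9.03) and 100108036 (8.79, pool B), beside the reporters on chromosome 9 at 119327841 (9.49) and chromosome 13 at 115384448 (8.97, pool A). These levels move with the pseudocount: with 5 in place of 1 they were 7.44 to 8.62.

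The 5 largest decreases were of strong reporters left with 0 RNA counts in both dox 100 libraries. With 0 counts left, the size of a decrease is set mostly by the counts at dox 0. That strong reporters lead this ranking was thus given beforehand. On chromosome 14 at 122112981 (pool B) the RNA counts were 4122 and 3793 at dox 0. With a floor of 3 counts over both dox 100 libraries, its scaled RNA to DNA ratio was at least 666-fold lower at dox 100. Like the calls, such a fold moves with the scaling of the libraries. By the same floor, the decrease in this ratio was at least 594-fold for the pool A reporter on chromosome 11 at 117569341. It was at least 593-fold for the pool C reporter on chromosome 5 at 149520240, and at least 566-fold for the pool A reporter on chromosome 8 at 129063487. That on chromosome 11 at 116892520 (pool A, 3360 and 4181 counts at dox 0) was the largest. At dox 0.1 the largest decrease was on chromosome 1 at 194894562 (pool A), from 294 and 334 RNA counts to 0 and 0 at both 0.1 and 100 ng/ml. Its scaled ratio was at least 91.7-fold lower at dox 0.1 (edgeR adjusted p = 0.000234). The next 4, at least 69.4-fold to 58.9-fold lower, lay on chromosomes 9, 5, 9 and 2.

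The 19 ends did not behave alike. Against the rest of its own chromosome, the distal 5 Mb was higher on 11 chromosomes and lower on 8 at dox 0, and higher on 8 and lower on 11 at dox 100. Which end a member belonged to accounted for 20.6% of the sum of squares of the levels at dox 0 and 10.9% at dox 100. Some share falls between 19 groups even where they do not differ, and that base was not computed. The highest ends at dox 0 were those of chromosome 15 at 1.40, chromosome 4 at 1.01 and chromosome 11 at 0.99, and the lowest with at least 10 members were chromosomes 17 at −1.83, 13 at −1.57 and 12 at −0.81. At dox 100 the order was led by chromosomes 15 at 2.26, 10 at 1.72 and 2 at 0.87, with chromosomes 17 at −3.19, 1 at −1.93 and 12 at −1.47 lowest. The value of chromosome 2 came from pool A (5.33) and was −1.69 without it, and that of chromosome 4 at dox 0 was 0.38 without pool C, with pools A and B below 0 (−0.45 and −0.34). With a window of 10 Mb the ends of chromosomes 17, 13 and 12 stood at −0.12, 0.18 and 0.37 at dox 0.

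**Figure D4:**
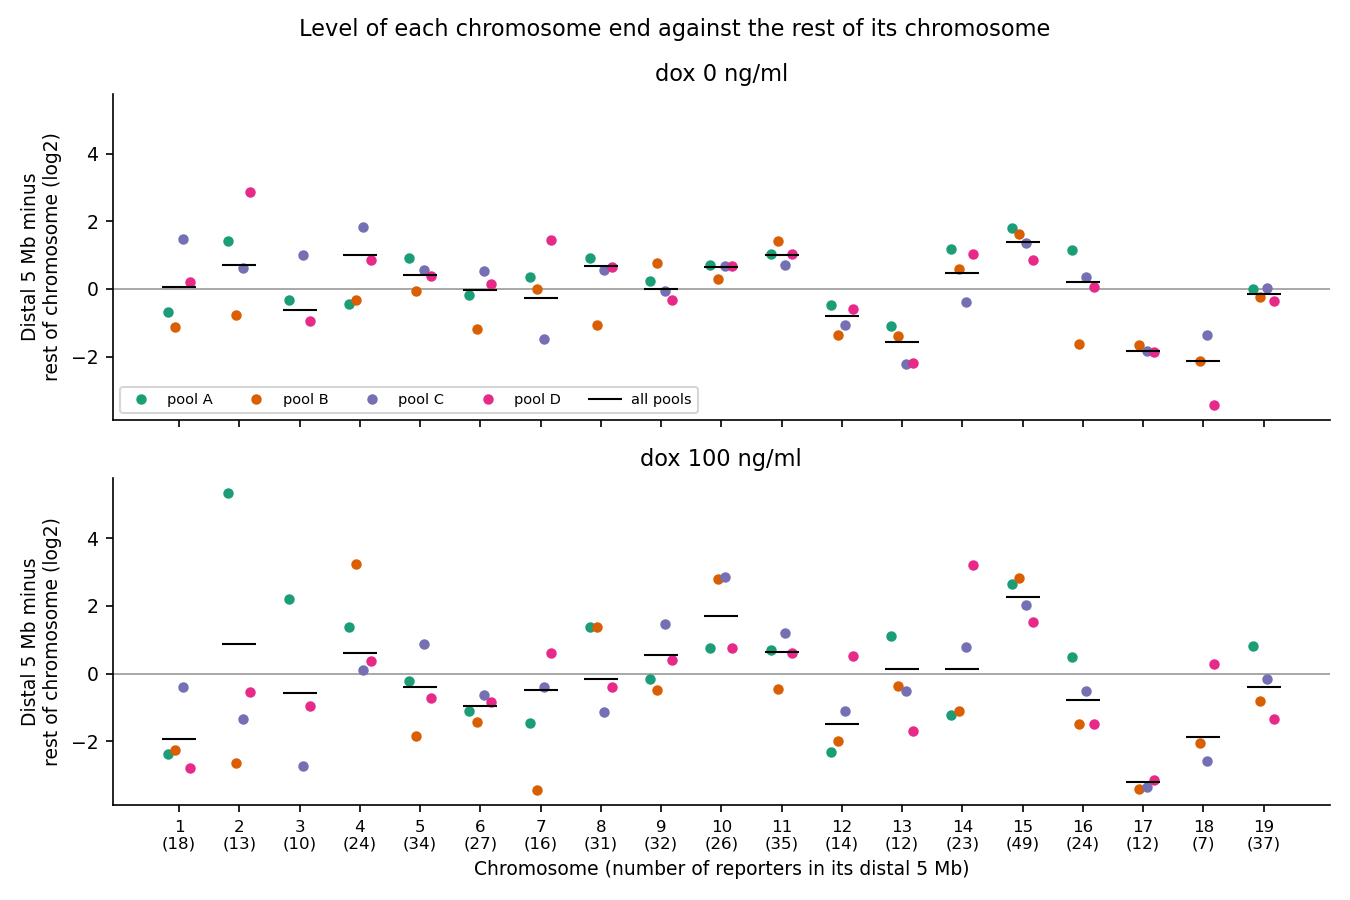
Mean level of the distal 5 Mb of each chromosome minus that of the rest of the same chromosome (log2) at dox 0 and 100 ng/ml, with 1 coloured point per pool, a black bar over all pools together and the number of distal reporters in brackets. Chromosome 15 was above 0 in 4 of 4 pools at both doses, and chromosome 17 below in the 3 pools with reporters there.

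The end of chromosome 15 held the most members, 49 from 4 pools, and lay above the rest of the chromosome by 1.80, 1.61, 1.37 and 0.86 in pools A to D at dox 0, and by 2.64, 2.83, 2.04 and 1.54 at dox 100. At dox 100, 12 of the 49 were higher (24.5%, against 10.9% of all tested) and 18 lower (36.7%, against 50.4%), and 22.4% had no RNA count, against 48.6% in the rest of the chromosome. The difference at dox 0 was 0.85 with a window of 2.5 Mb and 0.70 with 10 Mb. The outermost reporters went the other way. The 4 within 118 kb of the last one, from 3 pools, stood at −4.92 to −0.24 at dox 0 with 10 to 110 RNA counts, and none was called higher at dox 100. The last reporter, at 103408335 in pool A, went from 78 and 110 RNA counts to 0 and 0 (edgeR adjusted p = 0.000306). The next reporter, 284 kb from the end in pool B at 103124453, fell from 623 and 550 RNA counts to 0 and 8 (edgeR adjusted p = 0.0199). Just inward of it, between 334 and 363 kb, 5 reporters of 3 pools stood at −0.47 to 2.97 at dox 0 and at 5.12 to 8.13 at dox 100. The zero is the pool mean of each dose, so a level can rise while RNA counts fall. At 103044935 (pool C) the counts went from 941 and 1038 to 453 and 623, and the level from 2.10 to 5.71. Of the 5, 4 were called higher (1.97 to 2.89 on the log2 scale, edgeR adjusted p = 0.00016 to 0.0114). These groups were chosen after their values were seen, and 2 of those 4 calls, at 103070651 (pool B) and 103060857 (pool D), were lost with library totals (adjusted p = 0.157 and 0.164).

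The last 1 Mb of chromosome 4 stood highest of the 19 at dox 100 against the 1 to 5 Mb of its own end, by 6.28. Its 7 reporters there came from 3 pools and lay within 489 kb of the last one. Their levels were 0.59 to 3.73 at dox 0 and 0.97 to 8.14 at dox 100, each against the pool mean of that dose. All had RNA in at least 1 library at dox 100. Of the 7, 3 were higher, 0 lower and 4 without a call, beside 10.9% higher and 50.4% lower among all tested. The 3 outermost lay within 4.64 kb of each other, all on the minus strand and in different pools, so they share a site and are not separate cases. At 155567838 in pool A the RNA counts were 4781 and 5133 at dox 0, 5021 and 5045 at dox 0.01, 6633 and 6719 at dox 0.1 and 10645 and 12296 at dox 100, beside 2310 and 2416 DNA counts at dox 0 and 1690 and 1726 at dox 100. The fitted change was 3.28 ± 0.21 (log2, SE, edgeR adjusted p = 7.92e-07). At 155563202 in pool D the counts went from 1080 and 1229 to 1814 and 2760 (3.20 ± 0.50, adjusted p = 0.000245), and at 155564789 in pool C from 4075 and 4499 to 2858 and 3014 (1.05 ± 0.46, adjusted p = 0.0669). The other higher one, at 155078696 in pool D, lost its call with library totals (adjusted p = 0.0884) and without its second dox 100 culture (adjusted p = 0.105). These 7 were also singled out after their values were seen. Farther in, the 17 members 1 to 5 Mb from the end had 2 higher (11.8%, against 10.9% of all tested) and 11 lower calls (64.7%, against 50.4%). Of these 17, 10 had no RNA count at dox 100.

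Most reporters at the ends of chromosomes 17 and 1 had no RNA count at the top dose. On chromosome 17 all 12 members, from pools B, C and D, stood below the pool mean at dox 0 (−2.83 to −0.14), and the end lay below the rest of the chromosome by −1.66, −1.83 and −1.87 in those pools. At dox 100, 10 of the 12 had no RNA count (83.3%, against 42.2% in the rest of the chromosome), and 10 were lower and 0 higher, beside 50.4% and 10.9% of all tested. On chromosome 1 the 18 members differed from the rest of the chromosome by 0.06 at dox 0. The pools lay on both sides there, at −0.68, −1.13, 1.47 and 0.21 in A to D. At dox 100 the end lay below the rest in each pool, by −2.37, −2.25, −0.40 and −2.80 in A to D. There 15 of the 18 had no RNA count at dox 100 (83.3%, against 49.7% in the rest of the chromosome), with 13 lower (72.2%) and 0 higher. At dox 0 the 6 reporters of the last 1 Mb of chromosome 1 averaged −1.90 and the 12 farther in 0.58.

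**Figure D5:**
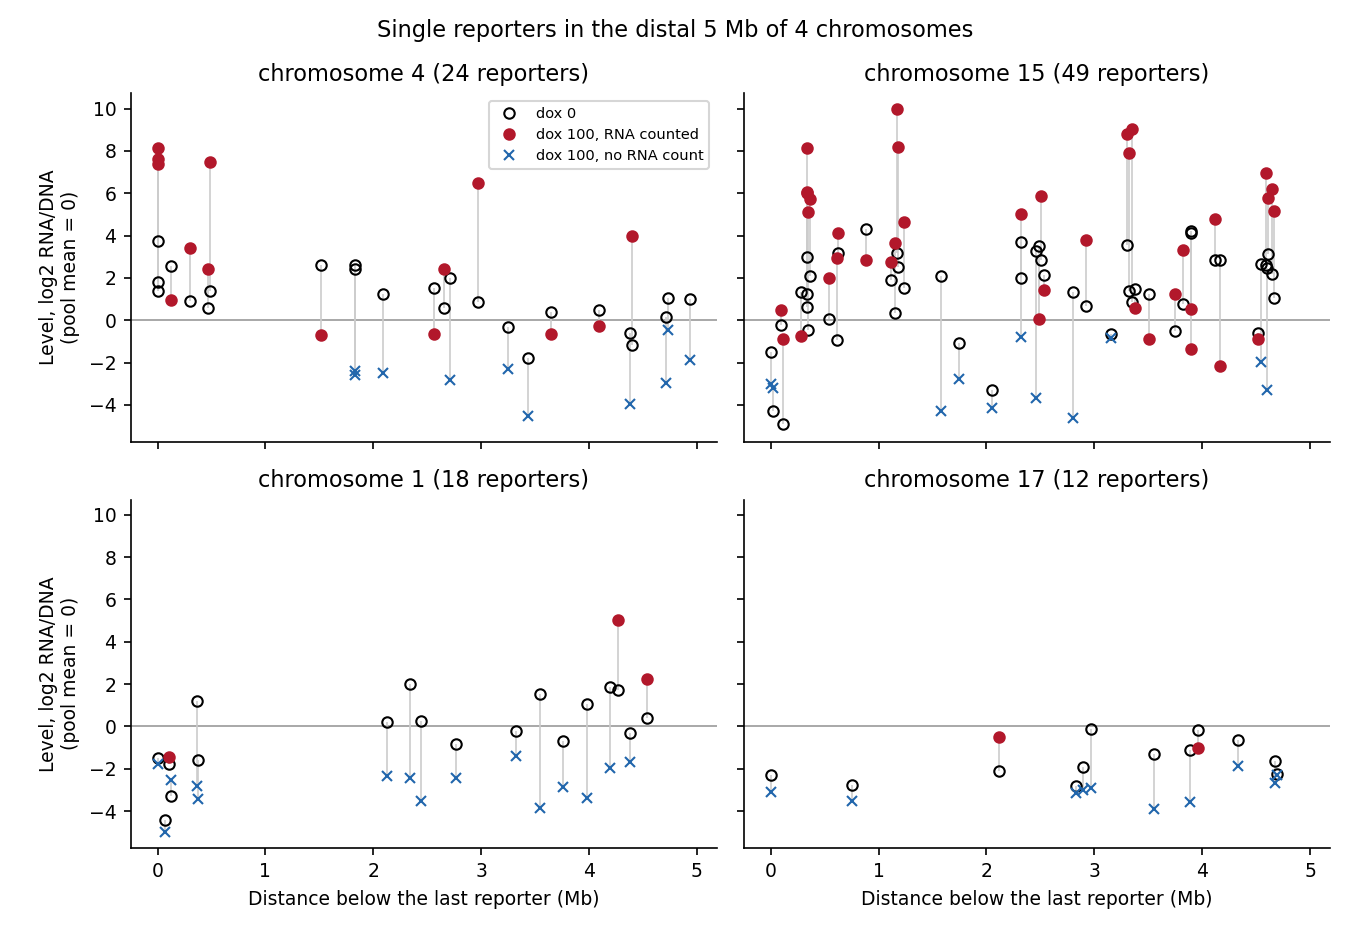
Level of each reporter in the distal 5 Mb of chromosomes 4, 15, 1 and 17 by distance below the last reporter in Mb. The pool mean of each dose is at 0, so the zero moves between doses. Open circles are dox 0, filled red circles dox 100 with RNA, and blue crosses dox 100 without an RNA count, where the DNA counts and the pseudocount set the level. The outermost 7 reporters of chromosome 4 all kept RNA, and 10 of the 12 on chromosome 17 lost it.

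The last reporter of each chromosome was usually weak. At dox 0 the 19 levels had a median of −1.55 and a range of −5.37 to 2.40, and 16 of 19 lay below their pool mean (for 18 chromosomes this was the highest position itself, and for chromosome 12 a reporter 255 kb below it). The 3 highest were on chromosome 2 at 181428040 (pool C, 277 and 222 RNA counts, level 2.40), chromosome 4 at 155567838 (1.80) and chromosome 7 at 152320465 (pool A, 785 and 737 counts, 1.46). The 3 lowest were those on chromosomes 3 and 18 given above and the one on chromosome 13 at 120252212 (pool C). At dox 100, 11 of the 19 had no RNA count, 7 were lower and 2 higher, beside 50.4% and 10.9% of all tested, which is too few to read against that background. The higher ones were that of chromosome 4, and that of chromosome 13, which went from 20 and 11 RNA counts to 62 and 129 (3.66 ± 0.83 on the log2 scale, SE, edgeR adjusted p = 0.0027).

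Neighbouring members of different pools resembled each other in part. As a description across pairs, which share libraries and reporters, Pearson's r of the levels at dox 0 was 0.15 over 32 pairs under 10 kb apart, 0.44 over 199 pairs 10 to 100 kb apart and 0.11 over 1375 pairs 100 kb to 1 Mb apart. Among other autosomal reporters these values were 0.38, 0.30 and 0.19. At dox 100 they were 0.46, 0.23 and 0.05 among members and 0.59, 0.35 and 0.07 among the others.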

How the data were processed

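The deposited table holds whole-number read counts per barcode, not normalized, for 64 RNA and DNA libraries, with a position for each reporter. The other 16 libraries mapped the integrations and are seen here as positions. The submitters' processing notes name Bowtie2 2.0 and mm9 and give no role for them. How barcodes were called: not given in the sources used here. Coordinates are those of the table; gene features were not analysed here.

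Changes in the RNA to DNA ratio were fitted in R 4.3.3 with edgeR 4.0.16, 1 quasi-likelihood model per pool over its 16 libraries (assay, dose, interaction), TMM within assay, with Benjamini-Hochberg adjustment over all reporters of the pool at 0.05. The SE was taken as the size of the log2 change over the root of its F statistic. The fit was tested on simulated data. Levels used Python 3.11.15, with pools as the unit of exact permutation tests. DESeq2 1.42.0 was an alternative. A DNA minimum of 10 left out 4 members, and 31 members have a barcode also listed in another pool.

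Replicate numbers pair the samples by the labels, since each culture was divided over the doses. In the data, replicate differences at dox 0 and at another dose correlated by −0.051 to 0.0463 (DNA) and −0.0157 to 0.0355 (RNA).

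Named reporters are the 5 highest and 5 lowest at dox 0, the 5 highest at dox 100, the 5 largest called changes each way at dox 0.1 and 100 among those whose replicates both moved that way, the last of each chromosome, the 3 nearest to either side of 5 Mb, and the 3 highest and lowest ends. Those named beyond this rule are said to be chosen after their values were seen. Members and rules were chosen with earlier results of these data known.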

Additional observations from a re-analysis of the deposited data

Results flagged for a closer look

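Among the 77 groups of 4 pool values examined, 1 held a pool far from the other 3: at the end of chromosome 10 at dox 0, pool B lay 0.30 above the rest of its chromosome and the others 0.67 to 0.72. Chance flags about 1 in 20 groups.

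Some ends lay on 1 side of the rest of their chromosome in all 4 pools and others on the opposite side. Differences between ends were not tested. At dox 0 the ends of chromosomes 10 (0.64), 11 (0.99) and 15 (1.40) were higher in each pool, and those of chromosomes 12 (−0.81) and 13 (−1.57) lower. At dox 0.01 chromosomes 10 (0.61), 11 (1.32) and 15 (1.53) were higher and chromosomes 6 (−0.37), 12 (−0.75) and 13 (−1.66) lower. At dox 100 chromosomes 4 (0.61), 10 (1.72) and 15 (2.26) were higher and chromosomes 1 (−1.93) and 6 (−0.95) lower.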

How the results depend on the processing

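Of 473 recomputed values of the set differences and call shares, 427 were counted as kept. For results with a test this means that direction and side of the threshold stayed. Call shares and the last 1 Mb have no test, and 18 of their values were counted as moved by size. For differences at a single dose, the permutation test over so few pools cannot reach p under 0.05. Their side of the threshold was thus fixed beforehand, and for them the count shows direction only. A kept direction can hide a smaller size. At dox 0 the level difference against reporters 5 to 25 Mb from the end, 0.015 in place of 0.33, counted as kept. At dox 0 the level difference of distal reporters was 0.16 to 0.42 when a replicate, pool or chromosome was left out. Against reporters 5 to 25 Mb from the end it was −0.0050, −0.040 and −0.10 at dox 0.01, 0.1 and 100, and among reporters with RNA in both replicates −0.14 and −0.0071 at dox 0.1 and 100. Leave-one-out values ran from −0.22 to 0.22 at dox 100, with −0.029 without pool A and −0.22 without chromosome 15. With a pseudocount of 5 the slope over doses was −0.077 (exact permutation p = 0.00411), and with 0.1 it was −0.042 (exact permutation p = 0.493). With 2.5 Mb it was 0.0030. In SD units, which grow with dose, it was −0.045 (exact permutation p = 7.23e-05). With 10 Mb the log2 slope was −0.078 (exact permutation p = 0.0208). Without barcodes listed in several pools, a choice made after seeing the data, it was −0.096 (exact permutation p = 0.0243). Left-out values ran from −0.126 to −0.035. The share without RNA differed by 0.82 points at dox 100 and 0.13 per step with a DNA minimum of 100. Leave-one-out gave −2.38 to 2.90 and −1.21 to 0.69. DNA abundance ran from −0.023 to 0.072.

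For the last 1 Mb, chosen after seeing the data, the difference at dox 0 was 0.062 with 2 Mb, −0.97 with 0.5 Mb and −1.08 against members 1 to 5 Mb in. At dox 100 it was −0.12 with a DNA minimum of 100 and −0.43 to 0.40 with left-out pools, chromosomes or replicates.

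The shares that follow are of members only. Shares of all reporters under the same alternative fits are not given here, so none can be read against a background. The DESeq2 Wald test called 0.229% higher and 1.14% lower at dox 0.01 and 43.5% lower at dox 0.1. Higher calls at dox 0.1 were 3.60% with DESeq2 size factors, 2.70% with library totals, 5.41% with DNA as an offset and 4.05% to 7.66% without a replicate. Lower calls at dox 0.1 were 30.6%, 33.1%, 11.7% and 11.04% to 27.7%. A dose left with 1 culture is taken to vary like the others. Higher calls at dox 100 were 7.43% and 6.08% with those scalings and 8.56% to 10.1% without a replicate. Paired by a replicate block, the calls were 8.11% higher and 17.1% lower at dox 0.1 and 13.1% and 50.0% at dox 100. Among named reporters the block ended the call on chromosome 7 at 151738710 alone.

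Among named reporters 9 values turned sign. On chromosome 10 at 126670304 the change was −0.71 with DESeq2 size factors, −1.16 with library totals, −0.71 by the Wald test and −0.47 to 0.37 without a replicate. At chromosome 15, 103290511, it was −5.70 to 3.54 without a replicate, at chromosome 7, 151738710, −2.10 to 9.46, at chromosome 15, 103044935, −0.20 with library totals, and at chromosome 4, 155266036, 0.037 with a DNA minimum of 100. For these the cause was not tested. Depth limits reporters near 0 RNA counts.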
